A study of Mus musculus with 4 samples.

Results

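In mouse calf muscle, 1318 of 7955 eligible genes (16.6%) carried a promoter-associated histone mark at separate promoters with starts spanning at least 5000 bp. Many mammalian genes can be transcribed from more than a single promoter. Alternative promoters give a gene different opening exons, which can change the start of the protein, the untranslated leader, or the tissue in which the gene is used. Trimethylation of lysine 4 of histone H3 (H3K4me3) marks nucleosomes around transcription start sites (TSSs), and is found most reliably at CpG-rich promoters. The genes described here are those in which, by the rule given below, H3K4me3 marked separate promoters of the same gene in skeletal muscle.

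The mark was mapped by chromatin immunoprecipitation and sequencing (ChIP-seq) in gastrocnemius, the main calf muscle, of female B6CASTF1/J mice aged 2 months. Pool E and pool F were each made from 2 biosamples and each gave 2 libraries, so 4 libraries of a single tissue, strain, sex and age were compared with no other condition. Peaks were available per pool and for both pools together, never per library, and the depth of the libraries is unknown. A gene was a member when it was autosomal and protein-coding, and had TSSs at least 5000 bp apart that each lay within 1000 bp of a peak of the replicated list, with the peaks separate after joining across gaps of up to 1000 bp. TSSs within 1000 bp of a TSS of another gene were left out. All other annotated TSSs were used, also those of transcripts tagged as lacking a known start. Members were thus chosen by the presence of peaks in the replicated list. The rule found 1318 genes. They were 16.6% of the 7955 autosomal protein-coding genes whose remaining TSSs spanned at least 5000 bp, and the annotation held 20807 autosomal protein-coding genes in all. Because peaks chose the members, that share is a description. Of the other eligible genes, 4682 had a single marked promoter and 1917 had none. In 38 the outermost TSSs of separate marked promoters were under 5000 bp apart. Since the distance is that between outermost TSSs, the promoters and peaks compared can lie closer together than 5000 bp.

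For each member, the outermost marked promoters were compared: the upstream promoter, nearest the start of the gene, and the downstream promoter, nearest its end. A peak's signal value is the authors' own, what it is relative to is not stated, and it was used only to set peaks of the same list side by side. All differences given are upstream minus downstream. The labelled tissue was checked at the promoters of marker genes: all 8 skeletal muscle fibre markers had a peak, with signal values from 23.2 at Myh4 to 58.8 at Mylpf. Of 10 markers of other cells and tissues, 6 had a peak, among them the endothelial gene Cdh5 (26.0) and the satellite cell gene Pax7 (35.1), while Alb, Myh6, Cd3e and Adipoq had none. In bulk muscle, a mark in fewer cells of a type and less mark per cell cannot be told apart.

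Sequence at the promoter pairs differed in a way that the rule had not used. Of the upstream promoters 760 (57.7%, 95% Wilson interval 54.98 to 60.3%) were in the high CpG class. In that class some 500 bp window of the 1000 bp around the TSS reached a CpG ratio (observed over expected CpG dinucleotides) of 0.75 and 55% GC. Of the downstream promoters 206 were in that class (15.6%, 13.8 to 17.7%). The low class, with ratios under 0.48 in every window, held 223 upstream promoters (16.9%) and 727 downstream promoters (55.2%). Among all 72829 TSSs of autosomal protein-coding genes that passed the exclusion, 29.6% were in the high and 52.3% in the low class. Those TSSs were counted whether or not a peak lay near them, whereas the members were chosen by peaks. The classes of genes with 1 marked promoter are given with the other observations at the end. The lines that follow show the 150 bases before an annotated TSS of each promoter, for 4 genes of the lists described further on. That TSS is not always the one that gave the CpG class. The genes were preferred for a large difference in CpG ratio between their promoters, and each CpG is in capitals. All sequences are from RefSeq's C57BL/6J reference, GRCm38.p6, although the mice were hybrids with another strain. The upstream windows held 24, 13, 28 and 17 CpGs for Ank1, Hdac4, Pde7a and Rbfox2, and the downstream windows held 5, 1, 2 and 4.
Ank1 upstream, chr8:22974694-22974843, plus strand: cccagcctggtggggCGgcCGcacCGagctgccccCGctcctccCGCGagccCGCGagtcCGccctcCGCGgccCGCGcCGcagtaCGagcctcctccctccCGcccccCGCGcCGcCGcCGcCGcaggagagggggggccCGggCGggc
Ank1 downstream, chr8:23139943-23140092, plus strand: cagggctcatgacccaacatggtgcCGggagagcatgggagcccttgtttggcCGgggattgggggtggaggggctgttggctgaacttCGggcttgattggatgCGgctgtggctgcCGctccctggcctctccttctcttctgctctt
Hdac4 upstream, chr1:92180342-92180491, minus strand: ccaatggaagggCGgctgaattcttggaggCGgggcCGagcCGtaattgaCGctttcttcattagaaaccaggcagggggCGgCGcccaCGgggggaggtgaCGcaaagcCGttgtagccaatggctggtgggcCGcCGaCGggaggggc
Hdac4 downstream, chr1:92113332-92113481, minus strand: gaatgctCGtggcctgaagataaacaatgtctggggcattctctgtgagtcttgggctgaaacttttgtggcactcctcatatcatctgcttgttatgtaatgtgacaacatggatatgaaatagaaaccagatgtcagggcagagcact
Pde7a upstream, chr3:19311323-19311472, minus strand: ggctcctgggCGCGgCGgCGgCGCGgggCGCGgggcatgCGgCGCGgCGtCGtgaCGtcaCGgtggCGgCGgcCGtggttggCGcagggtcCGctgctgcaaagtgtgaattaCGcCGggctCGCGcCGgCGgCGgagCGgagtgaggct
Pde7a downstream, chr3:19265009-19265158, minus strand: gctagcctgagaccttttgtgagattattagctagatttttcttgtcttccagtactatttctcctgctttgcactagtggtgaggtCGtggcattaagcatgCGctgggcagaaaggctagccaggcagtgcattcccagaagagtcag
Rbfox2 upstream, chr15:77307005-77307154, minus strand: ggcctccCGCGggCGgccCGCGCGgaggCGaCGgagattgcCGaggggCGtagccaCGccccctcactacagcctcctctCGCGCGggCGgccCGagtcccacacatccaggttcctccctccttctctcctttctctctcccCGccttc
Rbfox2 downstream, chr15:77153813-77153962, minus strand: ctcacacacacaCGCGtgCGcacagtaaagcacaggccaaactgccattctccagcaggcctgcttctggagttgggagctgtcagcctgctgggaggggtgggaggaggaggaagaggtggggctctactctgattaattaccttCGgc

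In most genes the upstream promoter carried the stronger and wider peak. The upstream peak had the higher signal value in 1009 of 1318 genes (76.6%, 95% Wilson interval 74.2 to 78.8%; intervals cover counting error only), the downstream peak in 308, and the values were equal in 1. Median signal values were 41.7 at upstream peaks (quartiles 25.6 and 53.2) and 9.83 at downstream peaks (4.55 and 28.1). The median difference was 24.6, with quartiles of 1.17 and 41.8. Median widths were 2279.5 bp upstream (1482 and 3302 bp) and 1198.5 bp downstream (605 and 2324 bp), and the upstream peak was the wider in 902 genes (68.4%). The single peaks of the 4682 eligible genes with 1 marked promoter had medians of 45.4 in signal and 2153 bp in width. With only transcripts tagged basic and with a known start, 527 genes were members, and the upstream peak was higher in 66.8%. Median signal values in these were 39.5 upstream and 20.4 downstream. No value per library existed, genes are not replicates, and no test was run on these differences. Signal and width did not always go together: in 169 genes (12.8%) the downstream peak was the wider but had the lower signal value, and in 62 (4.70%) the upstream peak was wider but lower.

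**Figure D1:**
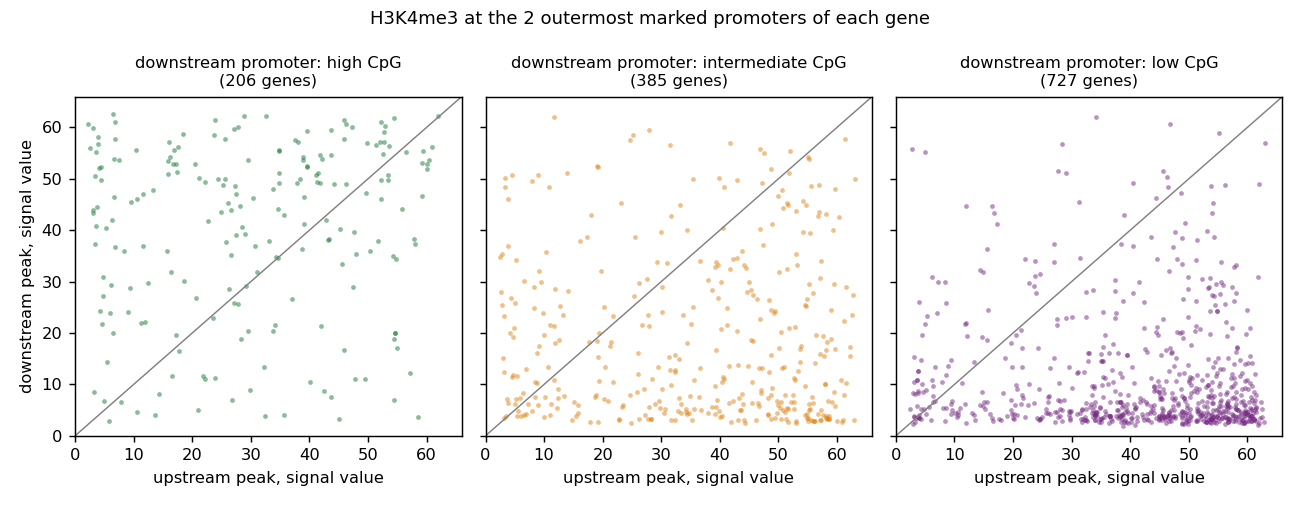
Signal value of the upstream peak (horizontal axis) and of the downstream peak (vertical axis) in the replicated list, 1 point for each of the 1318 genes, in panels by CpG class of the downstream promoter. The line marks equal values, and points crowd below it in the low class (727 genes) and lie more often above it in the high class (206 genes).

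The order of the peaks differed between combinations of CpG classes. With a high CpG upstream and a low CpG downstream promoter (441 genes, the commonest combination), the upstream peak had the higher signal value in 97.5% of genes, with medians of 49.4 and 5.83. In the reverse combination, low upstream and high downstream (40 genes), the upstream peak was higher in 6 genes (7.06 to 29.1% by its interval), with medians of 16.2 and 49.2. Where both promoters were in the high class (105 genes) the split was near even, 45.7% (36.5 to 55.2%), with medians of 39.6 upstream and 41.2 downstream. Where both were in the low class (118 genes) the upstream peak was higher in 69.5% (60.7 to 77.1%), with medians of 27.6 and 6.26, so equal classes did not always go with an even split. Over all downstream promoters the median signal value was 44.7 in the high, 13.3 in the intermediate and 6.21 in the low class, and over all upstream promoters it was 48.2, 30.8 and 19.8. Within each class the upstream median was thus above the downstream one. CpG ratios can still differ between promoters of the same class. The CpG windows and peaks of a gene come from the same locus, these are descriptions across genes, and no cause was tested.

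**Figure D2:**
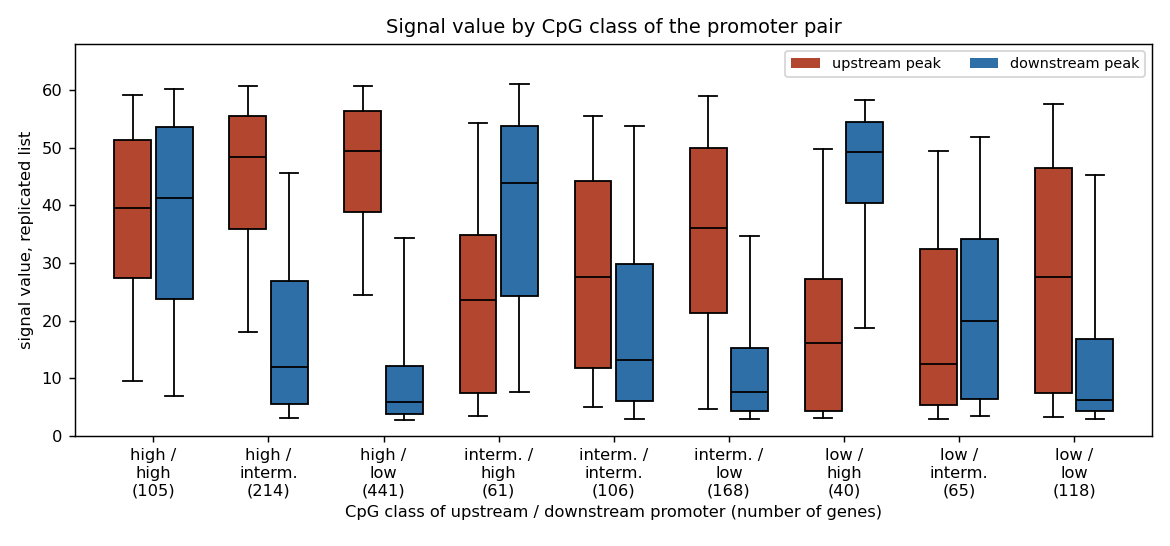
Signal value in the replicated list by CpG class of the upstream and downstream promoter, with the number of genes in parentheses (boxes: quartiles and median, whiskers: 5th to 95th percentile). Upstream boxes stand far above downstream boxes for high with low (medians 49.4 and 5.83) and below them for low with high (16.2 and 49.2).

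Both pools held nearly all upstream peaks and fewer of the downstream peaks. Of the upstream peaks 1290 (97.9%) were overlapped by at least 1 bp in the lists of both pools, and of the downstream peaks 1166 (88.5%), beside 95.5% of the 16792 autosomal replicated peaks within 1000 bp of any protein-coding TSS. Of those same peaks 97.5% were overlapped in pool E and 96.9% in pool F, beside 94.0% and 91.6% of the downstream peaks and 98.6% in each pool of the upstream peaks. Pool E alone overlapped 9 upstream and 73 downstream peaks, pool F alone 10 upstream and 41 downstream peaks, and neither pool's own list overlapped 9 upstream and 38 downstream peaks. The replicated list was itself made from both pools, so this support is not independent of it. The 2 pools gave separate values for the order: the upstream peak had the higher signal value in 76.4% of 1221 genes in pool E and in 75.6% of 1189 genes in pool F. In the 1139 genes with all peaks in both pools, the order was the same in 1091 (95.8%, 94.5 to 96.8%). The 48 genes whose order differed had small differences in the replicated list, with a median size of 1.91, against 27.7 for genes with the same order.

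**Figure D3:**
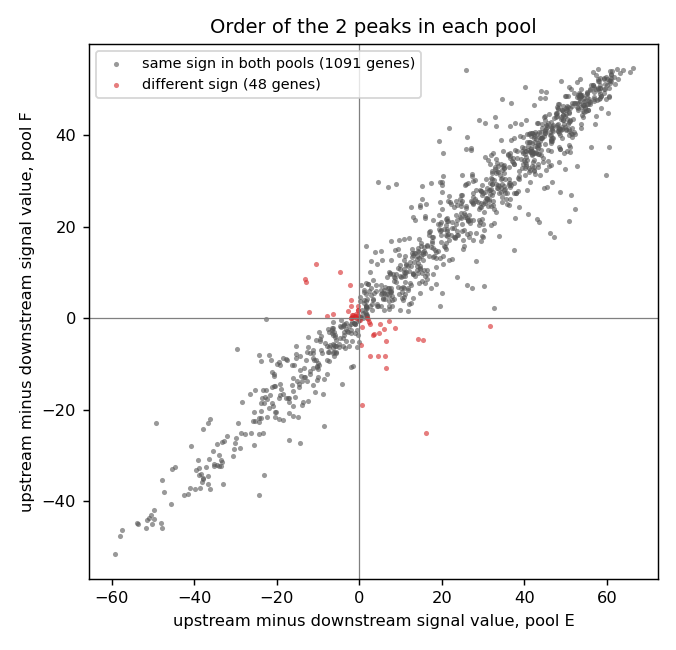
Upstream minus downstream signal value in pool E (horizontal axis) and in pool F (vertical axis) for the 1139 genes with both peaks in both pools, 1 point for each gene. Most points lie along the diagonal, and the 48 genes with different signs (red) lie mostly near 0, with Auts2 and Usp21 among those farther out.

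Among those 48, the members with the largest differences in pool E, whichever way, were Usp21, Auts2, Spi1, Macf1 and Twf2. Usp21, a deubiquitinase gene, had 58.4 upstream and 26.7 downstream in pool E, against 50.4 and 52.1 in pool F, and its downstream peak lay 649 bp from the TSS and held a TSS of the heme synthesis gene Ppox. Auts2, a gene of neural development, had 59.6 and 43.5 in pool E, and 28.8 and 54.0 in pool F, with a TSS of Gm28616 in the upstream peak. Spi1, the gene of the myeloid transcription factor PU.1, had 25.3 and 9.84 in pool E, and 3.41 and 8.24 in pool F, and its upstream peak lay 764 bp from the TSS. For Twf2, an actin-binding protein gene, the values were 39.2 and 52.4 in pool E, and 36.1 and 27.5 in pool F. Macf1 is described with the cytoskeleton genes. Peak bounds differed between the lists for some of these values. The upstream Spi1 peak was 1965 bp wide in pool E, 360 bp in pool F and 596 bp (3.76) in the replicated list. The downstream Twf2 peak was 5835, 4151 and 4393 bp wide in the same order. By contrast, the downstream Usp21 peak was 2343, 2265 and 2213 bp wide. With 1 value per pool, such changes of order have no replicate check.

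Among the largest differences in favour of the upstream promoter were Ezr, which links membrane and actin (63.0 upstream and 2.98 downstream), and Rnf123, a ubiquitin ligase gene (61.8 and 2.02). Next came Map7d1, a microtubule protein gene (62.0 and 2.42), Vdac1, the outer mitochondrial membrane channel (62.6 and 3.61), and Rac1, a small GTPase gene (62.2 and 3.47). The upstream promoters of these 5 genes were in the high CpG class, and the upstream peak of Rac1 also held a TSS of Gm42502. Their downstream peaks were 196 to 1677 bp wide. At Ezr, Rnf123 and Vdac1 the downstream TSS lay 104 to 502 bp outside its peak. The Vdac1 downstream peak was in the list of pool E (5.07) and not in that of pool F.

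The largest differences the other way joined a weak upstream peak to a strong internal one. Nfib, a transcription factor gene, had 2.14 upstream and 60.7 downstream, over a downstream peak of 17748 bp, the widest of all downstream peaks. Tank, an adaptor gene of NF-kappaB signalling, had 3.08 and 59.96. The chaperone gene Hsp90aa1 had 6.46 and 62.7, and the kinesin gene Kifc3 3.91 and 58.2. Gne, whose product starts sialic acid synthesis, had 6.89 and 61.0, and Hif1a, the oxygen-sensing transcription factor gene, 2.62 and 56.1. All 6 downstream promoters were in the high class and none of the upstream ones was. Of these 6 upstream peaks only that of Gne was in the lists of both pools. Those of Nfib and Hsp90aa1 were in pool E (4.29 and 8.94) but not in pool F, those of Kifc3 and Hif1a in pool F (4.70 and 2.81) but not in pool E, and that of Tank in neither. The upstream TSS lay outside its peak by 754 bp at Nfib, 432 bp at Hsp90aa1 and 22 bp at Hif1a, and the downstream Nfib peak also held a TSS of Gm11266.

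The separately marked promoters of a gene numbered 2 in 1037 genes, 3 in 207 and 4 or more in the remaining ones. Pde4d, a cAMP phosphodiesterase gene known for its many promoters, had the most, with 8 over 810608 bp of chromosome 13. Their signal values, in the direction of transcription, were 7.83, 39.9, 29.9, 9.64, 18.6, 47.8, 7.07 and 10.5, so the strongest peaks were internal. The outermost pair had 8.13 and 7.86 in pool E, and 8.07 and 7.92 in pool F, so that the upstream peak was slightly higher in the pools and lower in the replicated list (7.83 and 10.5). Frmd4b had 7 marked promoters, with signal values of 43.6, 43.4, 7.36, 5.17, 4.78, 42.7 and 5.03. Its strong peaks were the outermost upstream one and a pair inside the gene, and both outer peaks were in each pool. Tns1, a tensin gene of focal adhesions, also had 7, and Frmd4a and Fry had 6 each. Outermost marked TSSs were a median of 30345 bp apart (quartiles 12662 and 81672.5 bp). The largest distances were at the neuronal adhesion and scaffold genes Dlg2 (1703609 bp), Lsamp (1549058 bp) and Lrrc4c (1149920 bp) and at Prkg1 (1139542 bp), the cGMP-dependent kinase gene. The upstream peak of Dlg2 also held a TSS of Tmem126b, and that of Lrrc4c (2.60) was in the list of neither pool.

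A set of 6 gene lists, with 243 distinct genes, grouped members by known features or roles, not all of them particular to muscle: genes with alternative promoters known from the literature, sarcomere and cytoskeleton genes, transcription factors, calcium and kinase signalling genes, energy metabolism genes and splicing regulators. Of the 201 eligible genes in the lists, 102 were members (50.7%). Beside the 16.6% of all eligible genes stood 23.0% of the 4546 eligible genes with 5 or more TSSs and 8.04% of the 3409 with fewer. Since marking chose the members, nothing is read from these shares. In the 102 list members the upstream peak had the higher signal value in 76 and the downstream peak in 26, against 76.6% upstream in all members. Median signal values were 39.9 upstream and 13.3 downstream. Median widths were 2850 bp upstream and 2268 bp downstream, and 24 of the 102 downstream peaks were over 5000 bp wide, beside 76 of 1318 in all members (5.77%). The lists were drawn up with earlier results of these data known, so nothing is read from this contrast in width either.

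In genes known for alternative promoters the medians of both peaks lay closer together than over all members. Of the 37 eligible genes of that list 23 were members, with the upstream peak higher in 14 and the downstream peak in 9, beside 76.6% upstream higher over all members, and with median signal values of 38.0 and 28.9. The single or absent marked promoters of the list included Myl1, which gives the essential light chains of fast myosin, Pparg, Nr3c1 and Mitf, each with 1 marked promoter, and Hnf4a with none. Rora, a nuclear receptor gene, had 38.0 upstream and 57.1 downstream, with 39.8 and 62.4 in pool E, and 37.0 and 52.8 in pool F, a higher downstream peak in each. Esr1, the estrogen receptor alpha gene, had 39.3 and 33.8. At Pfkm, muscle phosphofructokinase, the values were 61.4 and 57.7. The upstream Pfkm peak lay 540 bp from the TSS and also held TSSs of Senp1 and Gm26513, so its signal cannot be told apart from theirs, while the downstream peak ran over 7205 bp.

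Several sarcomere and cytoskeleton genes had an internal peak much wider than the upstream one, although only 11 of the 29 members had the wider peak downstream, beside 31.6% of all members. Of 48 eligible genes 29 were members, with the upstream peak higher in 22 and the downstream peak in 7, beside 76.6% upstream higher over all members, and 18 of 29 downstream promoters were in the low CpG class, beside 55.2%. Ank1 encodes ankyrin-1, whose short muscle form, made from an internal promoter, ties the sarcoplasmic reticulum to the myofibril. It had 4 marked promoters, with signal values of 40.4, 5.74, 31.9 and 49.1 in the direction of transcription. The last, at a low CpG promoter whose sequence is shown above, had a peak of 8222 bp (chr8:23138950-23147171), which also held the TSSs of Mir486 and Mir3107. It was below the outermost upstream peak in pool E (45.5 upstream and 40.9 downstream) and above it in pool F (38.8 and 47.1), so the order of the pair differed between the pools. Plec, the gene of the cytolinker plectin with many alternative opening exons, had 3 marked promoters at 40.5, 39.0 and 37.0, with widths of 1683, 5497 and 9972 bp. With neighbouring peaks joined, the outer Plec domains were 5826 bp wide upstream and 13842 bp downstream. The upstream Plec promoter was in the high and the others were in the low class. In the pools its outer peaks had 38.9 and 39.3 in pool E, and 37.9 and 35.2 in pool F.

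Other named genes of the list had a narrower upstream and a wider internal peak. The list medians went the other way, with 2584 bp upstream and 1447 bp downstream. The named genes were picked for the signal of the weaker of their peaks. Ank3, the ankyrin-G gene, had 44.1 upstream over 2325 bp and 33.2 downstream over 6732 bp. Synpo2, a Z-disc protein gene, had 29.3 over 1305 bp and 33.8 over 7831 bp, and its upstream peak lay in a joined domain of 2698 bp. Macf1, a spectraplakin gene that links actin and microtubules, had 39.7 over 3190 bp and 33.2 over 9087 bp, and its order differed between the pools (42.6 and 28.4 in pool E, 38.4 and 43.0 in pool F), with a TSS of Gm12925 in the upstream peak. Smtn, a smoothelin gene named for smooth muscle, went the other way in width, 24.6 over 5427 bp and 31.5 over 4103 bp, and its order also differed (40.3 and 34.0 in pool E, 21.9 and 30.1 in pool F). Over the 76 downstream peaks above 5000 bp in all members, 29 (38.2%) were in the low and 22 (28.9%) in the high class. All 76 were overlapped by at least 1 bp in both pools, which does not show that their width recurred. In pool F the downstream peaks of Macf1 and Ank3 were 4321 and 4874 bp wide. Those of Synpo2, Ank1 and Plec were 7833, 8184 and 9840 bp wide there.

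**Figure D4:**
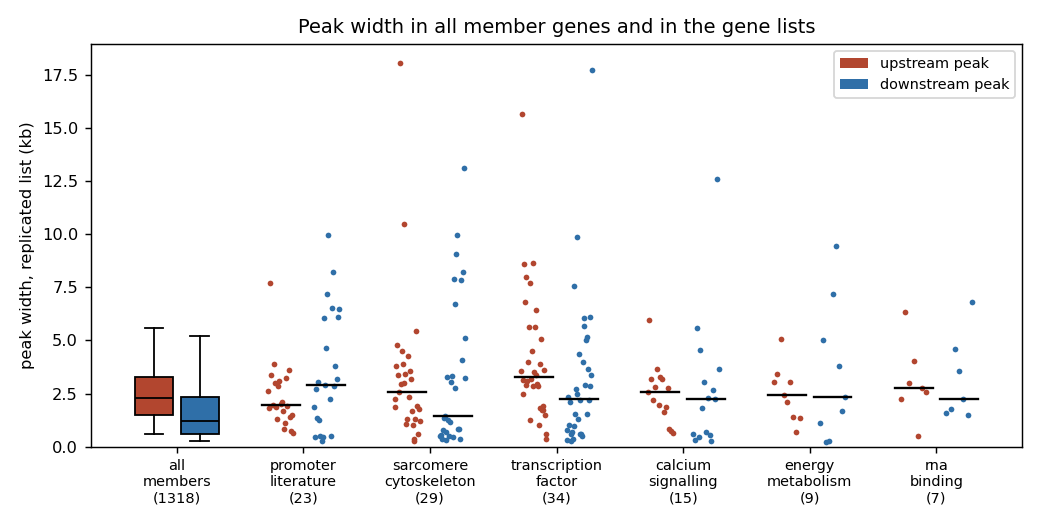
Width in kb of upstream and downstream peaks in the replicated list for all 1318 genes (boxes: quartiles and median, whiskers: 5th to 95th percentile) and for the members of each gene list (points: genes, lines: medians), with the number of genes in parentheses. Over all genes the upstream median of 2279.5 bp stands above the downstream 1198.5 bp, while the list of genes known for alternative promoters has medians of 1950 bp upstream and 2895 bp downstream.

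Of 60 eligible transcription factor genes 34 were members, 28 with the upstream and 6 with the downstream peak higher, beside 76.6% upstream higher over all members, and median signal values were 49.1 upstream and 12.3 downstream. Foxp1, a forkhead factor gene, had strong outer peaks of 59.2 and 53.1, both at high CpG promoters with peaks over 5000 bp wide, and weaker ones of 14.7 and 17.5 between them. Nfatc2, a calcineurin target, had 35.6 and 43.0. Hdac4, a class IIa deacetylase gene that restrains muscle gene programmes, had 41.4 upstream over 1016 bp and 30.0 downstream over 5681 bp. With neighbouring peaks joined, its domains were 3387 bp wide upstream and 6520 bp downstream. The Hdac4 upstream TSS lay 174 bp outside its peak, and no complete coding transcript began at the downstream promoter.

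Of 39 eligible calcium and kinase signalling genes 15 were members, 12 with the upstream and 3 with the downstream peak higher, beside the same 76.6%. Rcan1, the calcineurin inhibitor gene whose internal promoter is a known target of calcineurin and NFAT, had 61.6 upstream and 28.9 downstream, with 66.4 and 32.9 in pool E, and 57.6 and 25.6 in pool F. The related Rcan2 had 46.7 and 12.6. Pde7a, another phosphodiesterase gene, had 59.8 and 19.8 and Akt2, the kinase of insulin signalling in muscle, 38.5 and 11.4. Kalrn, a guanine nucleotide exchange factor gene, had 51.5 and 45.4. Pde4dip, the gene of myomegalin, which anchors phosphodiesterase, was higher downstream, with 13.2 and 47.8.

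Of 27 eligible energy metabolism genes 9 were members, 6 with the upstream and 3 with the downstream peak higher, beside 76.6% upstream higher over all members. Ppargc1a encodes PGC-1alpha, the coactivator of mitochondrial genes, and has a known exercise-responsive promoter upstream of the canonical promoter. Its upstream peak had 7.26 over 1420 bp and its canonical promoter, 13855 bp away by TSS, 29.9 over 3820 bp, with 9.41 and 28.8 in pool E, and 6.36 and 28.5 in pool F. The upstream value was the lower in every list, and both promoters were in the low CpG class. Prkag2, an AMP kinase subunit gene, had 16.2 upstream and 54.2 downstream, and Tbc1d1, a regulator of glucose transporter traffic, 10.6 and 46.0. Both genes had a low CpG upstream and a high CpG downstream promoter. The strongest Tbc1d1 peak was at an intermediate CpG promoter between the outer ones, at 52.6 over 4112 bp. Acsl1, which activates fatty acids, had 58.0 over 3436 bp and 16.4 over 5025 bp, with a TSS of Gm45244 in its upstream peak. Cd36, the fatty acid transporter gene, had 3 low CpG promoters with 11.4, 19.8 and 10.2, and widths of 3057, 6752 and 9437 bp. The outer Cd36 peaks had 12.5 and 18.9 in pool E, and 11.0 and 10.1 in pool F, so their order differed between the pools.

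Splicing regulators completed the lists, with 7 members of 14 eligible genes, 4 higher upstream and 3 downstream (76.6% upstream over all members), each with the same order in both pools. Mbnl1, the muscleblind gene whose product is sequestered in myotonic dystrophy, had 3 marked promoters at 6.61, 44.8 and 30.1. Its paralog Mbnl2 had 49.9 upstream and 5.98 downstream. Rbm20, a regulator of titin splicing, had 50.1 and 31.9, Rbfox2 51.2 and 26.3, Celf1 54.4 and 7.70, and Celf2 3.16 and 15.3. The strongest of the 4 Celf2 peaks was internal, at 56.5. Over the 29 list genes named here, the downstream peak was the wider in 21 although the upstream peak had the higher signal value in 18, and the order differed between the pools in 5: Ank1, Cd36, Macf1, Plec and Smtn. These genes were picked for the signal of the weaker of their peaks, so the counts describe that choice.

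**Figure D5:**
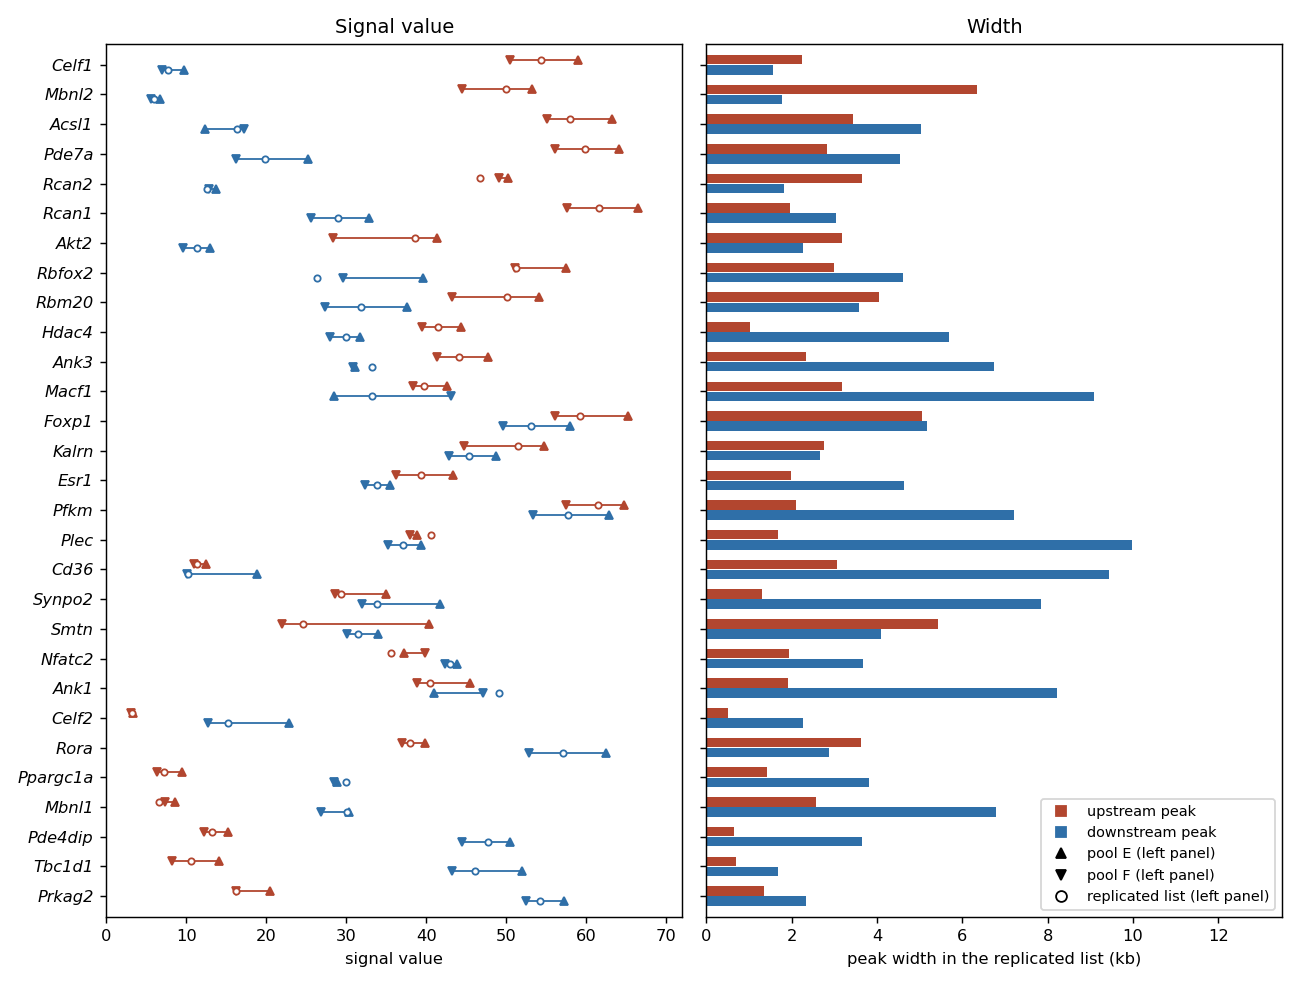
Signal value (left panel: pool E, pool F and the replicated list) and peak width in kb (right panel: replicated list) of the upstream and downstream peaks of the 29 named list genes, ordered by upstream minus downstream signal value with the highest at the top. Upstream and downstream values are far apart at both ends, as for Celf1 and Prkag2, and overlap in the middle, as for Plec and Cd36, while downstream bars are the longer in 21 genes.

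The annotated transcripts of the promoter pairs were compared for their coding starts, which the rule had not used. At the upstream promoter 93.9% of genes had a transcript with a complete coding start, and at the downstream promoter 50.7%. Where both had one (623 genes), 385 (61.8%, 57.9 to 65.5%) shared no start codon and 238 shared at least 1. Among the 385, the longest coding sequence from the downstream promoter was the shorter in 287 (74.5%) and the longer in 94. Transcripts were not filtered for a complete coding end, so some of these lengths can come from unfinished models. Tbc1d1, for example, had 38 bp upstream and Rbm20 had 205 bp downstream. The counts thus describe the annotation and not protein length. Genes with different start codons had median signal values of 39.6 upstream and 21.0 downstream, and genes with a shared start codon 38.4 and 16.5. In the 615 genes (46.7%) with a coding start at the upstream promoter only, the medians were 45.2 and 5.95, and 67.0% of the downstream promoters were in the low CpG class. A curated RefSeq transcript began within 100 bp of 79.7% of upstream and 34.3% of downstream promoters. In the 317 genes with such a start at both, the upstream peak was higher in 67.2% (61.8 to 72.1%), with median signal values of 39.0 and 21.8. Annotation level thus moved with the difference, and its part in the result was not tested.

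The downstream TSS lay in an intron of an upstream transcript in 1010 genes (76.6%), in an exon in 240 (18.2%) and beyond the upstream transcripts in 68 (5.16%). Median downstream signal values were 10.8 for intronic, 6.26 for exonic and 14.5 for outside positions. At least 1 TSS lay inside the peak itself for 93.2% of upstream and 69.7% of downstream promoters, and the others were within 1000 bp of it. A TSS of another gene lay inside 101 upstream peaks (7.66%) and 57 downstream peaks (4.32%), of which 40 and 28 belonged to another protein-coding gene. At the 5000 bp limit, the members just inside were 1700001O22Rik (5043 bp, 33.1 upstream and 5.64 downstream), Spag6 (5052 bp, 32.5 and 3.87) and Usp21 (5085 bp, 54.0 and 27.4). The genes just outside were Gabbr1 (4708 bp, 54.9 and 35.8), Ercc1 (4698 bp, 52.3 and 12.8) and N4bp2l2 (4696 bp, 62.8 and 4.66).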

How the data were processed

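H3K4me3 ChIP-seq of gastrocnemius was deposited as 4 narrowPeak lists on mm10: replicated peaks of both pools, a pooled list, and the lists of pool E and pool F. Per the deposited text files, peaks came from filtered alignments in which the technical libraries of a pool were already merged. The aligner and the peak caller are not given in the sources used here. As deposited, the signal value of a peak is the authors' own, and the authors' −log10 q-value served only for a stricter threshold. Depth is unknown, so intervals (95%, Wilson) cover counting error only.

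TSSs came from GENCODE M21, whose GRCm38 build is that of mm10, and sequences and curated starts from RefSeq GRCm38.p6. The main run used the TSSs of all transcripts, also those tagged as lacking a known start. A promoter's peak was the highest within 1000 bp of its TSSs, and its CpG class came from the TSS with most transcripts, in steps of 50 bp with windows of 500 bp. Pool values were those of the highest overlapping peak in the pool's list, and where a pool split a peak they describe part of it. Where a pool's peak was wider, the value can come from outside the replicated peak. Python 3.11.15 and scipy 1.17.1 were used, and the search was tested on simulated data. The members and gene lists were chosen with earlier results of these data known. Genes were named by rule: the 6 largest and 6 smallest differences, the 5 with most promoters, the 4 with the largest distances, up to 6 per list by the weaker peak, 5 whose order differed between pools, and 3 on each side of the distance limit. Chromosome 18 was left out of that naming, and some genes that the rule names are not reported here. Alternatives were the TSS window, gap, distance, exclusion, transcript set, peak list, q-value, pairing, peak choice, width, overlap and CpG window. Limiting pairs to curated starts, or to peaks without TSSs of other genes, was added after seeing the data.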

Additional observations from a re-analysis of the deposited data

How the results depend on the processing

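The upstream peak had the higher signal value in most genes under every alternative run, between 66.8 and 77.8% of genes. With transcripts tagged basic and with a known start, 527 genes were members. In these the upstream peak was higher in 66.8%, the median downstream signal value was 20.4 and width 1922 bp, support by both pools was 98.7% upstream and 95.3% downstream, 24.9% of downstream promoters were of high CpG class, the order was the same in both pools in 93.5%, and start codons differed in 66.7%. With curated RefSeq starts at both promoters, 317 genes remained, with 67.2%, widths of 2071 bp upstream and 1886 bp downstream, a downstream signal value of 21.8, downstream support of 97.2%, and high CpG shares of 62.1% upstream and 26.2% downstream.

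At a TSS window of 0 bp the downstream medians were 14.97 and 1572.5 bp, support was 98.8% upstream and 94.4% downstream, and high CpG shares were 61.2% and 20.2%. At 2500 bp the downstream medians were 8.73 and 1059.5 bp and the downstream high CpG share 12.8%. A gap of 3000 bp gave a downstream signal value of 10.4, a distance of 10000 bp a downstream width of 1232 bp, and exclusion near protein-coding TSSs only an upstream high CpG share of 60.9%. A q-value of at most 0.01 gave 10.5, 1261 bp and 91.0% support downstream, and the pooled list 9.35, 1152 bp and 85.6%. Against the next marked promoter the downstream medians were 10.6 and 1239.5 bp. Joined domains were 2433.5 bp wide upstream and 1421 bp downstream. Overlap of 50% of the peak left 83.6% of downstream peaks supported. CpG windows of 500 bp gave high shares of 47.3% upstream and 11.2% downstream. Without peaks that held a TSS of another gene the downstream width was 1164 bp. The cause of these shifts was not tested.

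With the list of a single pool, support was 98.6 to 99.0% upstream and 87.2 to 95.6% downstream, and the median downstream signal value 10.4 to 11.1. Each peak then overlapped itself in its own pool, so this support counts the other pool only and is not comparable with the main shares. No paired analysis was possible because the lists merge the technical libraries of each pool, so no value per library exists.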

Other observations

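Position within the gene and distance added values beyond the pairs. In eligible genes with 1 marked promoter, that promoter included the outermost upstream TSS in 4197 of 4682 genes (89.6%, 95% Wilson interval 88.7 to 90.5%), and 66.6% of these promoters were in the high and 13.9% in the low CpG class. Beside them, 57.7% of the upstream and 15.6% of the downstream promoters of the members were in the high class. Over 5 distance classes of the members, ordered by the distance between marked TSSs, the upstream peak was higher in 76.5% of 234 genes under 10000 bp, and then in 70.4% of 274, 81.6% of 316, 77.2% of 228 and 76.3% of 266 genes. Median downstream signal values in these classes, from near to far, were 7.97, 9.27, 7.54, 12.9 and 12.5.

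In 673 members (51.1%) the signal values of both peaks were above 7.45, the median of all autosomal replicated peaks, and in 88 members (6.68%) both were over 40.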
